A study of Mus musculus with 12 samples.

Results

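The genes described here make, sense, move and store cholesterol: 33 of the 16080 genes measured in AEC2, the surfactant-producing type 2 cells of the alveolar epithelium, isolated from mouse lung. They were taken by symbol from a list of the mevalonate and sterol enzymes, the regulators of SREBP and the genes of sterol uptake, transport, efflux and storage, and all 33 were measured. The 12 libraries comprise 4 for each of 3 genotypes of surfactant protein C (SP-C, encoded by Sftpc): SP-C WT, SP-C C185Gneo, which the series calls a hypomorphic control, and SP-C C185G, the mutant. All 12 libraries came from female mice of strain Bl6 aged P56 (postnatal day 56) that had received intraperitoneal tamoxifen, 200 mg per kg on 2 days, in every genotype including the WT, and the cells were isolated on day 7. The sources used here name no recombinase or driving promoter. They also do not say whether libraries came from separate animals or pools, and the spread behind the p-values is therefore that of these libraries and may be technical. During isolation, mesenchymal cells were depleted by adherence to plastic and CD45+ cells by magnetic beads. Library titles do not follow the genotype field: those of the C185Gneo libraries carry the name C185G and those of the C185G libraries another code. Groups follow the genotype field throughout.

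Cholesterol is built in the endoplasmic reticulum (ER) and its adjoining membranes from acetyl-CoA, which is joined into mevalonate, converted to isopentenyl units, condensed to farnesyl diphosphate and squalene, closed into lanosterol and then trimmed to cholesterol. The transcription factors SREBP1 and SREBP2 (Srebf1, Srebf2) are made as ER membrane proteins; when sterols are scarce, SCAP carries them to the Golgi for cleavage, and when sterols are plentiful, the INSIG proteins hold them back. Liver X receptors (LXR) respond to oxysterols and favour efflux. In AEC2 cholesterol is a constituent of surfactant, stored in lamellar bodies beside phospholipid.

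RefSeq promoter windows (GRCm38.p6, 250 bases before to 50 bases after a transcript start) were at hand for 27 of the 33 genes, and 4 are shown because their genes span the range of the changes reported below: Hmgcs1, an early enzyme that fell, Nsdhl and Dhcr7, late enzymes that fell further, and Pmvk, the enzyme gene that rose. Hmgcs1 was taken as the gene with a match to the sterol regulatory element searched, and the others were chosen after their values were seen. Where a gene had several windows, the one nearest its GENCODE start is printed. The 250 bases upstream of the start are printed 5′ to 3′ on the strand of the gene, and capitals mark TCACNCCAC (the sterol regulatory element), CCAAT (NF-Y) and GGGCGG (Sp1) on either strand. The windows are chr13:119690101-119690350 (plus strand) for Hmgcs1, chrX:72918271-72918520 (plus) for Nsdhl, chr7:143822917-143823166 (plus) for Dhcr7 and chr3:89454291-89454540 (plus) for Pmvk.
Hmgcs1: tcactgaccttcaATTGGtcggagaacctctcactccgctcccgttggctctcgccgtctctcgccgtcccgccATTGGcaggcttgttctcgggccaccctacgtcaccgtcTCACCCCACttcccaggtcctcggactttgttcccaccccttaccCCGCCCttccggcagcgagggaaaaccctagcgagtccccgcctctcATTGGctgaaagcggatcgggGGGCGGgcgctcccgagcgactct
Nsdhl: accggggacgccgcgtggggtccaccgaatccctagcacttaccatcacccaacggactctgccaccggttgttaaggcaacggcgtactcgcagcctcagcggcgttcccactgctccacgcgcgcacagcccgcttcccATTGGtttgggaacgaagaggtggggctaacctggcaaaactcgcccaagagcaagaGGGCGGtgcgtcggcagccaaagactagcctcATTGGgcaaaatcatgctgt
Dhcr7: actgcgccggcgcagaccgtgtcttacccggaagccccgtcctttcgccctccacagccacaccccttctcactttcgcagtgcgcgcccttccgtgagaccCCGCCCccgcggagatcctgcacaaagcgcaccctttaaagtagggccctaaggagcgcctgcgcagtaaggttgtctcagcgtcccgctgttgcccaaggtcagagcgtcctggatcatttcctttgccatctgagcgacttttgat
Pmvk: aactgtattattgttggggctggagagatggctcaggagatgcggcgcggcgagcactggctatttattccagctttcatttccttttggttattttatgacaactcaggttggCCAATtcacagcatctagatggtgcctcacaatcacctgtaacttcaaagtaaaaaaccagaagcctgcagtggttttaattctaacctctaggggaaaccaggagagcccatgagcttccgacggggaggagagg
The Hmgcs1 promoter held 1 match to TCACNCCAC, the run TCACCCCAC that begins 137 bases before the start, with 3 CCAAT and 2 GGGCGG matches. Nsdhl held 2 CCAAT matches and 1 GGGCGG match. Dhcr7 held 1 GGGCGG match and Pmvk 1 CCAAT match in the printed stretch. Dhcr7 has 3 windows, and in full these held up to 2 CCAAT and up to 3 GGGCGG matches. None of the printed matches overlap each other. Over the full windows TCACNCCAC occurred in 1 of the 27 genes (3.7%), against 1.44% of the 27025 genes with a window. CCAAT occurred in 23 of 27 (85.2%, against 41.1%) and GGGCGG in 24 of 27 (88.9%, against 38.2%). Among the 17 synthesis enzymes with a window, 16 held CCAAT and 15 held GGGCGG. The 27025 genes include many that were not measured in these cells, and shares among the measured genes alone were not counted. The difference is therefore not shown to be particular to the cholesterol genes. These letters are a description of the windows and not of binding.

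Levels are given as normalized CPM, the recovered read counts on the authors' scaling. By that measure Sftpc ranged from 7211 to 7674 in WT, from 772 to 1079 in C185Gneo and from 2471 to 3059 in C185G, and no groups overlapped. Total counts ran from 15659512 to 23444287 per library. Changes are log2 fold changes from 1 limma fit of all 12 libraries, and called genes have an adjusted p under 0.05 (Benjamini-Hochberg over all 16080 genes). The 12 AEC2 markers were all lower in C185G than in WT (median -1.28), and their summed level was 15161 to 18391 normalized CPM in C185G against 36520 to 42989 in WT and 33471 to 38295 in C185Gneo. Without Sftpc, the edited gene, which is one of these markers, the sums were 12102 to 15543, 29309 to 35536 and 32699 to 37216. In such bulk samples, fewer cells of a type and less RNA per cell cannot be told apart. Summed mesenchymal markers were 745 to 1068 in C185G, 541 to 734 in WT and 294 to 578 in C185Gneo (Dcn and Plin2 of 10 called higher and 0 lower in C185G against WT), and endothelial markers 120 to 141, 161 to 252 and 149 to 236 (6 of 9 lower and 0 higher). Of 12 listed macrophage markers 6 were measured, with sums of 55.6 to 74.6, 52 to 68.3 and 42.8 to 59.3. In C185G against WT 3 of 6 were called higher (50%, against 27.3% of all genes) and 0 lower (against 27.8%). The share called in either direction was also 50%, against 55% of all genes. Cd68, Chil3 and Mrc1 rose by 0.94, 1.69 and 0.54 (adjusted p = 6e-06, 0.000815 and 0.0487), while Csf1r was -0.79 without overlap (adjusted p = 0.0545), Itgax -0.34 (adjusted p = 0.585) and Fabp4 0.10 (adjusted p = 0.841). Of 12 other leukocyte markers 6 were measured, with sums of 30.5 to 96.9, 26.6 to 47.2 and 31.8 to 44.3 (2 called higher, 1 lower). Alveolar type 1 markers summed to 2184 to 2840, 2119 to 2728 and 2055 to 2559 (3 of 10 higher, 1 lower) and club and ciliated markers to 5068 to 6002, 6045 to 8262 and 6296 to 7917 (0 of 8 higher, 3 lower). The shares called in either direction were 20% for mesenchymal, 66.7% for endothelial and 50% for other leukocyte markers. They were 40% for alveolar type 1 and 37.5% for club and ciliated markers, beside 55% of all genes. By direction, 66.7% of endothelial markers were lower, against 27.8% of all genes, and 20% of mesenchymal markers higher, against 27.3%. In C185Gneo against WT Plin2 was -0.05, where the median of the mesenchymal list was -0.66. Whether its rise in C185G came from mesenchymal cells was not tested. The part of these shifts in the results below was not tested.

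Transcripts of the listed cholesterol synthesis enzymes were mostly lower in C185G than in WT. Of the 20 enzyme genes 18 fell, 1 (Pmvk) rose and 1 (Ggps1) did not pass the test, with a median change of -1.03. Over all 33 genes 26 fell and 2 rose, which is 28 called (84.8%) where 55% of all genes measured were called. The background was 27.8% for genes called lower and 27.3% for genes called higher, and the median over all genes was 0. With library totals as the scaling, 3593 of 8950 called genes were lower, in place of 4464 of 8852, while 26 of the 33 were still lower. Falls of more than 1 on the log2 scale were found in 13 of the 33 (39.4%), against 6.5% of all genes, and a rise of more than 1 in 1, against 5.05%. The groups did not overlap in 26 of the 33 genes, against 48.7% of all genes: 24 were lower (background 23.5%) and 2 higher (25.2%). The 4 lists of enzymes by step had medians of -1.15 from acetyl-CoA to isopentenyl units, -0.87 for prenyl chains and squalene, -0.96 from squalene to lanosterol and -0.98 from lanosterol to cholesterol.

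**Figure D1:**
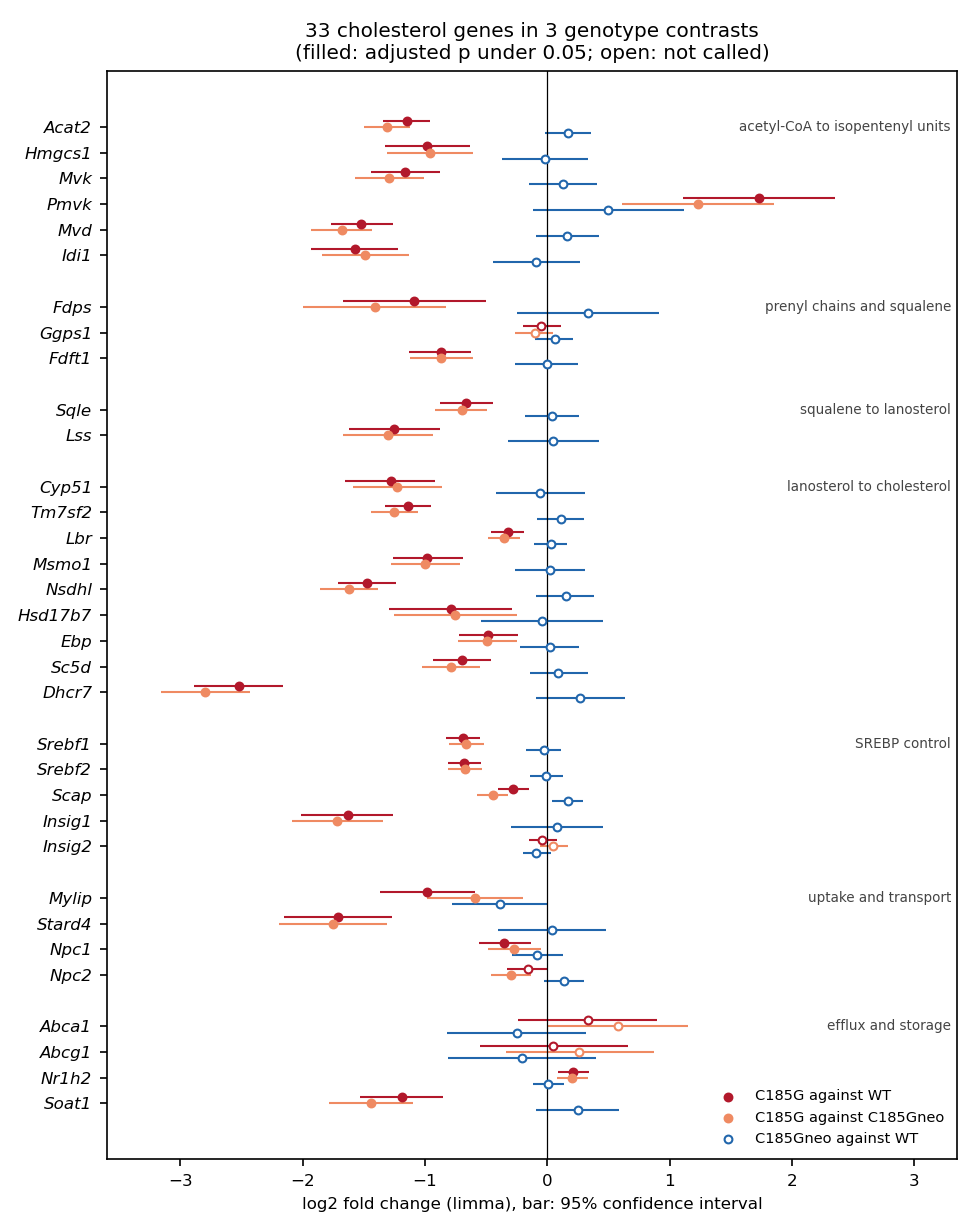
Log2 fold changes (horizontal axis) of the 33 genes in pathway order (vertical axis) in C185G against WT (red), C185G against C185Gneo (orange) and C185Gneo against WT (blue), with 95% confidence intervals from limma; filled points are called and open points are not. In both C185G contrasts the enzyme genes lie left of 0 apart from Pmvk, from -0.32 for Lbr to -2.52 for Dhcr7 against WT, with Ggps1 close to 0, and no blue point is filled.

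The early enzymes, which build mevalonate and convert it to isopentenyl units, fell in 5 of 6 cases. Acat2, the cytosolic thiolase that joins acetyl-CoA, was 105, 108, 95.2 and 79.8 normalized CPM in WT libraries 1 to 4 and 40.9, 44.1, 41.5 and 47.9 in C185G. All C185G libraries lay below all WT libraries, and the change was -1.15 (SE 0.0885, adjusted p = 1.76e-07). Acat2 matches Acat3 at 97.698% of 1477 bases and Tcp1 at 98.652% of 445, so how reads were divided between these genes is uncertain. Hmgcs1, the synthase that makes HMG-CoA and whose promoter is shown above, stood at 573, 507, 336 and 388 in WT and at 204, 240, 200 and 257 in C185G. Its WT libraries were spread widely, with the first pair high, yet all exceeded every C185G library (-0.98, adjusted p = 0.000262). Mvk, the first of both mevalonate kinases, fell from 43.1 ± 4.99 to 19.4 ± 3.57 normalized CPM (SD, n = 4 each; -1.16, adjusted p = 6.51e-06). Mvd, which decarboxylates the product of the kinases, fell from 61.5 ± 10.4 to 21.3 ± 2.38 (-1.52, adjusted p = 2.46e-07). Idi1, the isomerase of isopentenyl diphosphate, fell from 83.6 ± 12.7 to 28.5 ± 7.37 (-1.57, adjusted p = 6.18e-06).

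Pmvk, the kinase between Mvk and Mvd, went the opposite way. Its level was 83.1, 80.1, 117 and 112 normalized CPM in WT libraries 1 to 4, 87.2, 99.4, 207 and 193 in C185Gneo and 253, 343, 325 and 371 in C185G. Every C185G library exceeded every control library, and within C185Gneo the libraries split into a lower pair (1 and 2) and a higher pair (3 and 4), a split that is smaller and in the same direction in WT. Pmvk rose by 1.73 against WT (SE 0.28, adjusted p = 0.000373) and was 1.23 higher than in C185Gneo (adjusted p = 0.00328). The ratio of Pmvk to Mvk within a library was 14.1 to 21.5 in C185G, against 1.66 to 3.05 in WT and 1.68 to 4.95 in C185Gneo. The log2 ratio differed by 2.89 between C185G and WT (exact permutation test, two-sided, p = 0.0286, the smallest p that 4 against 4 libraries allow; adjusted p = 0.0357 over the 10 ratio tests made). Ratios were compared for 5 pairs of genes in both C185G contrasts, all chosen with their levels known. Their p-values therefore add no support to the changes of the single genes. For Pmvk and Mvk, whose groups were without overlap in opposite directions, this p was fixed in advance. It was also fixed for Insig1 to Insig2, Fdft1 to Ggps1 and Tm7sf2 to Lbr. There the gap between the groups of the first gene exceeded the whole log2 range of the second. Pmvk lies on chromosome 3 from 89454541 to 89469013 (GRCm38, plus strand).

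At the branch point, Fdft1 and Fdps fell and Ggps1 did not pass the test. Fdft1, squalene synthase, which commits farnesyl diphosphate to sterols, was 161, 160, 117 and 126 normalized CPM in WT and 65.6, 79.5, 72.5 and 89.7 in C185G. The groups did not overlap (-0.87, adjusted p = 4.45e-05). Ggps1, which diverts farnesyl diphosphate to the geranylgeranyl chains of small GTPases, was 23.4, 23, 24.7 and 23.8 in WT and 25.9, 21.8, 21.6 and 22.7 in C185G, with overlapping groups (-0.05, 95% interval -0.2 to 0.11, adjusted p = 0.596). Its exons lie opposite those of Arid4b, at 194 normalized CPM in WT and 178 in C185G, and without a stated strand setting reads from this pair cannot be told apart, which also bears on the ratio that follows. The log2 ratio of Fdft1 to Ggps1 differed by -0.82 (exact permutation p = 0.0286, adjusted p = 0.0357). Fdps, farnesyl diphosphate synthase, was 5.49 to 11.6 in WT and 3.04 to 6.47 in C185G, so that C185G library 4 exceeded WT library 4 (-1.09, adjusted p = 0.00419). Fdps shares at least 95% identity over 200 or more bases with 4 pseudogenes and exons with the predicted gene Gm43738 on the same strand, so its low level is uncertain. Fdft1, Ggps1 and Idi1 also have such copies among pseudogenes (1, 1 and 2 genes).

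Squalene is then oxidised and closed into lanosterol, and both genes of that step fell. Lss, lanosterol synthase, was 230, 216, 169 and 158 normalized CPM in WT and 61.4, 83.9, 74.7 and 107 in C185G (-1.25, adjusted p = 6.35e-05). Sqle, squalene epoxidase, a rate-controlling enzyme of the pathway, was 178, 182, 163 and 155 in WT and 94.2, 115, 92.1 and 130 in C185G (-0.66, adjusted p = 9.75e-05). Neither gene's groups overlapped.

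All 9 genes that turn lanosterol into cholesterol fell, over a wide range. Dhcr7, the reductase that yields cholesterol in the last reaction of one arm of the pathway, was 45.5, 51, 44.1 and 29.4 normalized CPM in WT, 56.6, 53.1, 43.8 and 48.8 in C185Gneo and 8.81, 7.87, 5.61 and 7.02 in C185G. Its C185G libraries retained 17.4% of the WT level (-2.52, SE 0.169, adjusted p = 9.38e-08), the largest fall among the 33 genes. Nsdhl, a dehydrogenase of sterol demethylation, fell from 61.9 ± 8.9 to 22.2 ± 2.34 (SD, n = 4 each; -1.47, adjusted p = 1.51e-07), and Cyp51, the lanosterol demethylase, from 183 ± 34.7 to 75.8 ± 17.7 (-1.28, adjusted p = 4.88e-05). Msmo1, the methylsterol monooxygenase, fell by 0.98, Hsd17b7, the sterone reductase, by 0.79, Sc5d, a desaturase, by 0.70, and Ebp, the sterol isomerase, by 0.48 (adjusted p = 4.56e-05, 0.0122, 0.000117 and 0.0026). Exons of Cyp51 lie opposite Akap9 and those of Fdft1 opposite Ctsb, with the same limit on telling reads apart.

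Tm7sf2 and Lbr, whose proteins carry out the same sterol reduction, fell by different amounts. Tm7sf2 was 21.4, 24.2, 23.2 and 18.1 normalized CPM in WT and 10.1, 10.2, 9.43 and 9.49 in C185G (-1.14, adjusted p = 1.7e-07). Lbr, which is also the lamin B receptor of the nuclear envelope, was 80.8, 78.5, 70.4 and 73.2 in WT and 57.7, 59.3, 58 and 67.2 in C185G (-0.32, adjusted p = 0.000575). The ratio of Tm7sf2 to Lbr fell from 0.247 to 0.33 in WT to 0.141 to 0.175 in C185G, a difference of -0.81 in the log2 ratio (exact permutation p = 0.0286, adjusted p = 0.0357). Tm7sf2 shares exon bases with Vps51 on the same strand, which was at 40 normalized CPM in WT and 43.8 in C185G. How reads were divided between these genes is uncertain, which also bears on the ratio to Lbr.

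**Figure D2:**
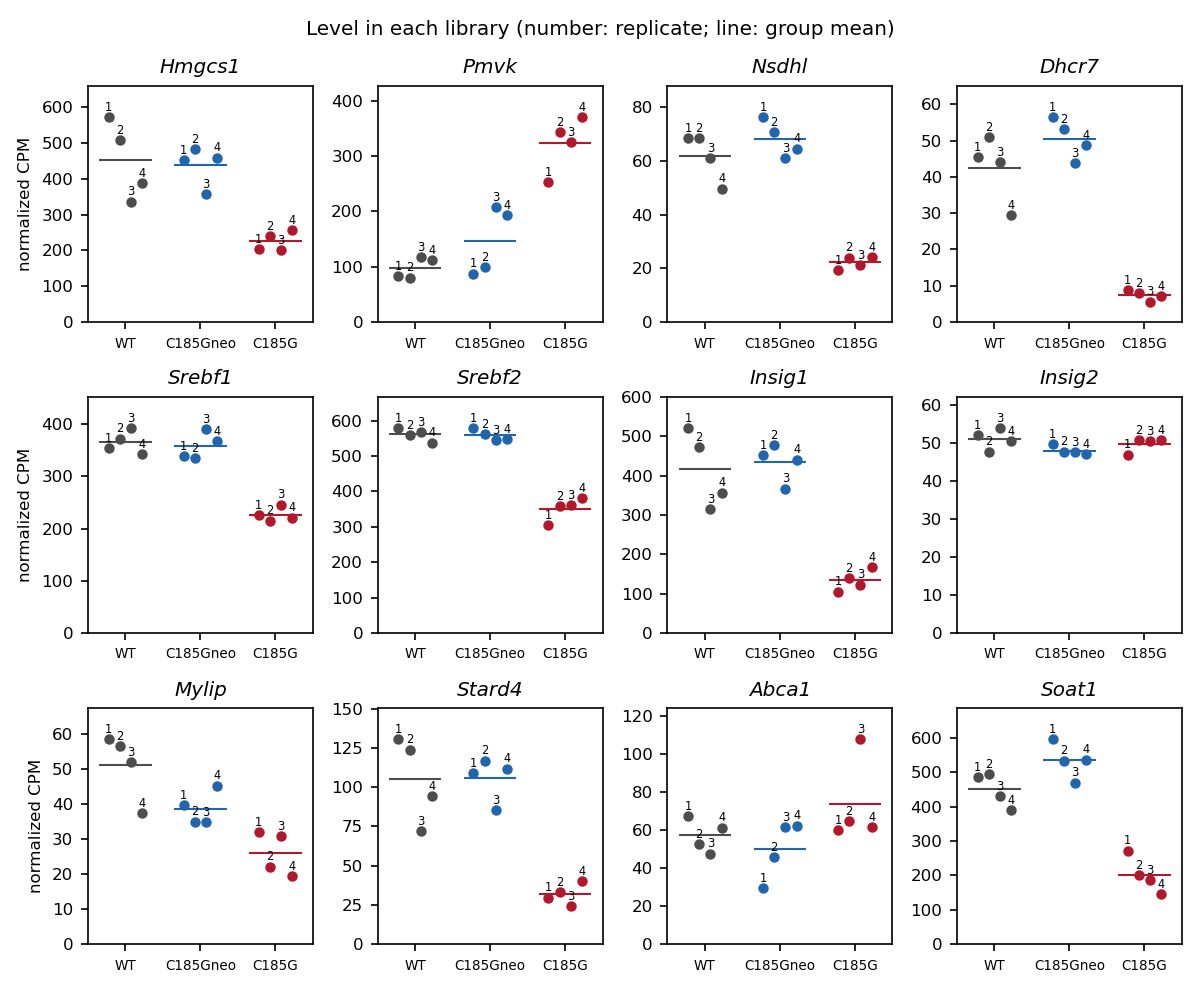
Normalized CPM (vertical axis, from 0) of 12 of the 33 genes in each library, by genotype (horizontal axis); points are libraries labelled with the replicate number and lines are group means. Dhcr7, Insig1, Stard4 and Soat1 show C185G libraries below all control libraries, Pmvk shows them above, and Insig2 sits between 47 and 54.1 in all 12.

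Among the regulators, both SREBP genes, Scap and Insig1 fell, and Insig2 did not pass the test. Srebf2, whose product drives the sterol enzymes, was 580, 560, 568 and 538 normalized CPM in WT and 305, 359, 361 and 382 in C185G (-0.68, adjusted p = 9.98e-07). Srebf1, whose products drive sterol and fatty acid genes, was 354, 372, 393 and 342 in WT and 225, 215, 246 and 221 in C185G (-0.69, adjusted p = 1.03e-06). The control libraries of both genes were tightly grouped, and the groups did not overlap. The ratio of Srebf2 to Srebf1 was 1.45 to 1.64 in WT and 1.36 to 1.73 in C185G and did not differ by the exact permutation test (difference of log2 ratios 0.01, p = 0.943, adjusted p = 0.943). Scap, the escort, fell by 0.28 (adjusted p = 0.00113), from 129 ± 5.07 to 107 ± 3.62 (SD, n = 4 each). Exons of Srebf1 lie opposite Rai1.

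Insig1 and Insig2 encode related ER anchors, of which Insig1 is itself a classical SREBP target. Insig1 was 522, 473, 315 and 357 normalized CPM in WT, 452, 477, 367 and 441 in C185Gneo and 105, 139, 123 and 167 in C185G. The highest C185G library was below the lowest control library (-1.63, SE 0.172, adjusted p = 9.04e-06). Insig2 was 52.2, 47.8, 54.1 and 50.6 in WT and 47, 50.8, 50.6 and 50.9 in C185G (-0.04, 95% interval -0.15 to 0.08, adjusted p = 0.568). The ratio of Insig1 to Insig2 fell from 5.82 to 10 in WT to 2.23 to 3.28 in C185G, by 1.60 in log2 (exact permutation p = 0.0286, adjusted p = 0.0357).

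Genes of sterol uptake and transport fell in 3 of 4 cases against WT, where 27.8% of all genes fell. Stard4, a soluble carrier that moves sterol between membranes and a known SREBP target, was 131, 124, 72.1 and 94.2 normalized CPM in WT and 29.6, 33.1, 24.3 and 40.3 in C185G (-1.71, SE 0.2, adjusted p = 2.47e-05). Mylip, an LXR-induced ubiquitin ligase for receptors of the lipoprotein family, was 58.6, 56.6, 52 and 37.3 in WT, 39.6, 34.9, 34.7 and 45.2 in C185Gneo and 32, 22.1, 30.7 and 19.4 in C185G. C185G libraries were the lowest, with C185Gneo overlapping WT (-0.98 against WT, adjusted p = 0.000552, and -0.39 for C185Gneo against WT, adjusted p = 0.52). Npc1 and Npc2 hand cholesterol out of late endosomes and lysosomes. Npc1 was 489, 450, 404 and 381 in WT and 318, 298, 405 and 338 in C185G, where library 3 lay within the WT range (-0.35, adjusted p = 0.00907). Npc2, also a secreted protein, was 2190, 2144, 1942 and 1815 in WT and 1822, 1602, 2040 and 1773 in C185G (-0.16, adjusted p = 0.0913). Quantile normalization turned the sign for Npc2 (0.19, adjusted p = 0.0156), and leaving out WT library 4 or C185G library 3 gave -0.21 and -0.22 (adjusted p = 0.0375 and 0.0265). Exons of Npc1 lie opposite Rmc1.

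The 4 genes of efflux and storage did not move together. Soat1, which esterifies cholesterol for storage in droplets, was 487, 495, 430 and 391 normalized CPM in WT, 598, 534, 470 and 537 in C185Gneo and 272, 200, 187 and 146 in C185G. All C185G libraries were below all controls (-1.19, SE 0.156, adjusted p = 4.41e-05). Nr1h2, the gene of LXR beta, was 108, 102, 112 and 105 in WT and 117, 116, 138 and 125 in C185G, a rise of 0.21 without overlap (adjusted p = 0.00715). Abca1, the exporter that loads cholesterol onto apolipoprotein acceptors, was 67.4, 52.4, 47.6 and 61.2 in WT, 29.4, 45.8, 61.4 and 62.3 in C185Gneo and 59.8, 64.6, 108 and 61.3 in C185G. C185G library 3 stood apart from the rest of its group, and the groups overlapped (0.33, 95% interval -0.24 to 0.9, adjusted p = 0.302). Abcg1, which exports cholesterol to lipoprotein particles, was 1.67 to 5.51 in all 12 libraries (0.05, 95% interval -0.55 to 0.66, adjusted p = 0.887). Both exporters are LXR targets.

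Per kilobase of exon, Npc2 was the most abundant of the 33 in WT at 372 ± 32.3 CPM per kb (SD, n = 4). Insig1 followed at 135 ± 31.2, Hmgcs1 at 98.1 ± 23.5 and Srebf2 at 78.1 ± 2.45. The length used was that of all annotated exons of a gene together, not of the transcripts expressed. The order between genes given here is therefore approximate. Within each WT library Insig1 exceeded Hmgcs1 per kb by 1.35 to 1.39 times, whereas the ratio of Hmgcs1 to Srebf2 ran from 0.926 to 1.55 and did not keep 1 order. In all 4 C185G libraries Insig1 was below Hmgcs1 (ratio 0.764 to 0.964). In C185G Npc2 was still first at 333 ± 33.2, and Pmvk came next at 188 ± 29.5, from 57.1 ± 11 in WT. Hmgcs1 and Srebf2 followed at 49 ± 6.02 and 49 ± 4.58. Among the 20 enzymes, Fdps (2.13 ± 0.703 in WT), Tm7sf2 (4.93 ± 0.613), Ggps1 (5.03 ± 0.151) and Dhcr7 (7.3 ± 1.58) were the lowest in WT. The levels of Fdps, Tm7sf2 and Ggps1 carry the limits on their reads given above. Dhcr7 and Fdps were the lowest in C185G, at 1.26 ± 0.233 and 1.01 ± 0.381. Abcg1 was lowest of all at 0.458 ± 0.0688 in WT.

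The enzyme genes also tended to be high or low together within a genotype. In WT library 1, 15 of the 20 lay above the WT mean on the log2 scale, and in library 2, 17 of 20, against 6 and 3 of 20 in libraries 3 and 4. In C185Gneo the count was 3 of 20 in library 3 and 12 to 17 in the others. In C185G it was 5 and 1 in libraries 1 and 3 and 18 and 16 in libraries 2 and 4. These counts were not made over all genes. Whether other genes shifted alike in the same libraries was not tested. The median deviation of the 20 genes from their group mean ran from -0.20 in WT library 4 to 0.21 in C185G library 4, small beside the median change of -1.03. The coefficient of variation of the 33 genes had a median of 14.4% in WT, 9.73% in C185Gneo and 15.6% in C185G.

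**Figure D3:**
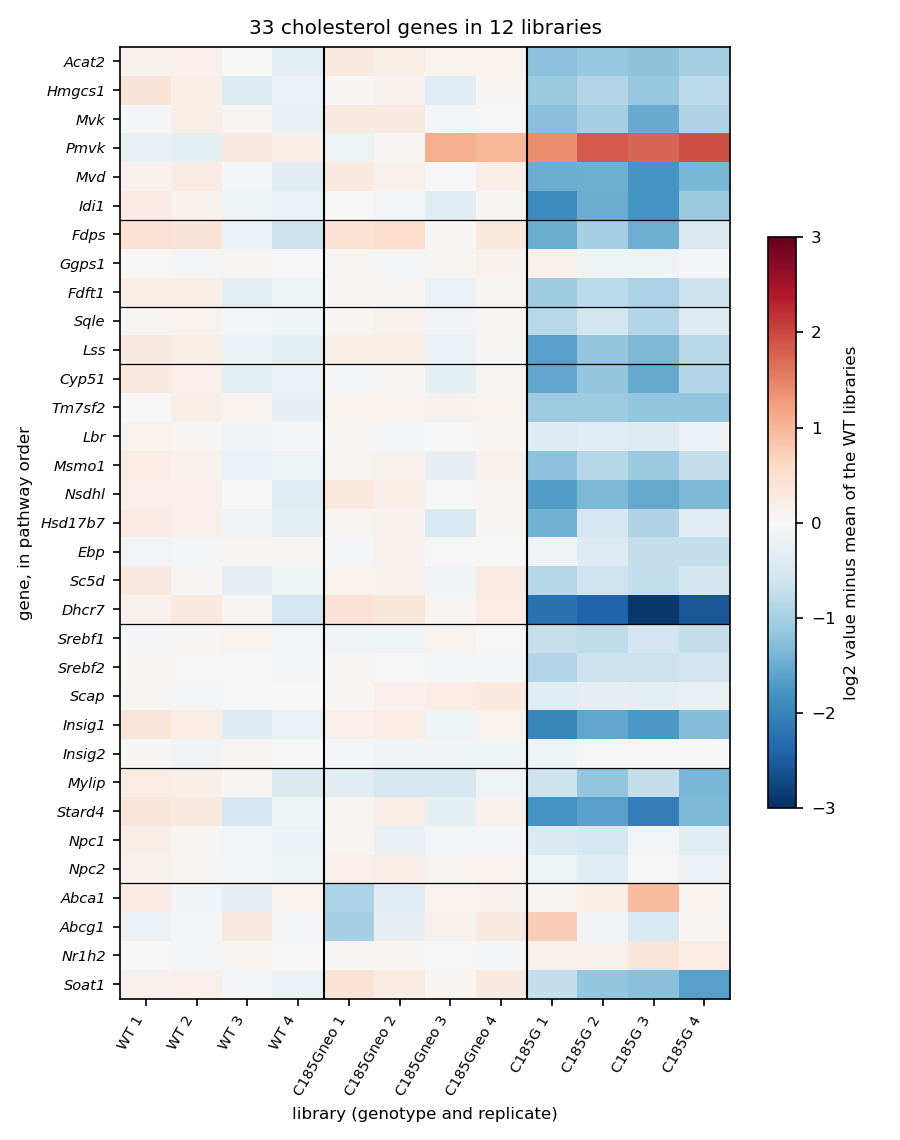
Log2 value of each of the 33 genes (rows, in pathway order) minus its mean over the WT libraries, in each of the 12 libraries (columns); blue is lower and red higher, and lines separate genotypes and pathway steps. The 4 C185G columns are blue for most enzyme genes, deepest for Dhcr7, while Pmvk is red in C185G and in C185Gneo libraries 3 and 4.

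Against C185Gneo, the control whose Sftpc level was below that of the mutant, the genes again fell in C185G. Both contrasts use the same C185G libraries. Markers of other cells moved in this contrast too: 9 of 10 mesenchymal markers were higher (median 1), 8 of 9 endothelial markers were lower (median -0.82), and 3 of 6 macrophage markers were higher, Mrc1 by 1.76 (adjusted p = 1.22e-05). Their part in the values below was not tested. Of the 33 genes 27 fell and 2 rose (29 called, 87.9%) where 57.8% of all genes were called (28.7% lower and 29.2% higher), and 13 fell by more than 1, against 6.93% of all genes, and 1 rose by more than 1, against 6.41%. The groups did not overlap in 27 of the 33 genes, against 49.9% of all genes (25 lower, background 24.2%, and 2 higher, background 25.7%). With library totals as the scaling, 3923 of 9360 called genes were lower, in place of 4607 of 9298, and 26 of the 33. The 20 enzymes had a median of -1.11, with 18 lower, Pmvk higher and Ggps1 not called (-0.10, adjusted p = 0.228). Dhcr7 was lower by 2.80 (adjusted p = 3.08e-08), Stard4 by 1.75 (adjusted p = 1.9e-05), Insig1 by 1.72 (adjusted p = 5.52e-06), Mvd by 1.68 (adjusted p = 8.07e-08), Nsdhl by 1.62 (adjusted p = 5.27e-08), and Soat1 by 1.44 (adjusted p = 8.67e-06). The SREBP genes fell by 0.67 (Srebf2, adjusted p = 9.73e-07) and 0.66 (Srebf1, adjusted p = 1.4e-06). Npc2, which did not pass the test against WT, was lower by 0.30 (adjusted p = 0.00482), a call that quantile normalization ended (-0.04, adjusted p = 0.595). Npc1 was lower by 0.27 (adjusted p = 0.0332). That call was lost without C185G library 1, 2 or 4 or C185Gneo library 1, 3 or 4 (adjusted p = 0.0606 to 0.104) and under 3 other settings. Abca1 was 0.58 higher (adjusted p = 0.0762), and voom weights, library totals as the scaling or leaving out C185Gneo library 4 brought it under the threshold (adjusted p = 0.0423, 0.0448 and 0.0462). Ggps1 passed when C185G library 1 was left out (-0.16, adjusted p = 0.0468).

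Between both controls, limma called 0 of the 33 genes, where 0.541% of all genes were called (0.292% lower and 0.249% higher, 0.155% by more than 1 in each direction). The groups were without overlap in 0 of the 33, against 6.87% of all genes (3.3% lower and 3.56% higher). At an unadjusted p under 0.05 there were 2, Scap (0.17) and Mylip (-0.39), against 9.54% of all genes, and voom weights also gave 0. The changes ran from -0.39 for Mylip to 0.50 for Pmvk, and the 33 confidence intervals together span -0.82 to 1.12. Dhcr7 was 0.27 (95% interval -0.09 to 0.64) and Hmgcs1 -0.02 (-0.37 to 0.33), while Sftpc itself was 3.07 lower in C185Gneo (adjusted p = 5.93e-10). The median of the 20 enzymes was 0.05.

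**Figure D4:**
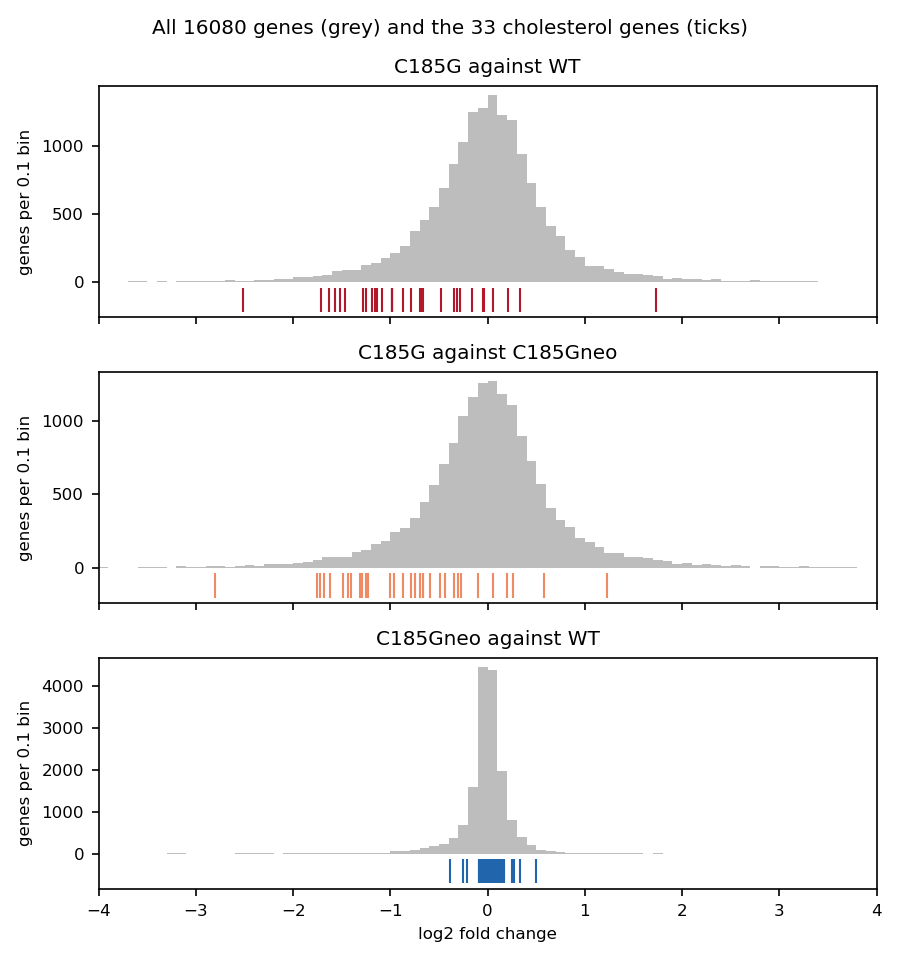
Distribution of log2 fold changes (horizontal axis) over all 16080 genes in bins of 0.1 (grey, vertical axis in genes per bin, shown from -4 to 4) with each of the 33 genes as a tick below, in the 3 contrasts. Ticks are shifted to the left in both C185G contrasts (medians -0.87 and -0.79) and gather near 0 in C185Gneo against WT (median 0.04).

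Genes around the pathway were read from lists of neighbouring functions. Fatty acid genes under SREBP control fell in C185G against WT in 13 of 14 cases (92.9%, against 27.8% of all genes), with 0 higher and a median of -1.10. The fatty acid desaturases Fads1 and Fads2 fell by 1.67 and 1.61 (adjusted p = 4.5e-09 and 8.25e-09). Gpam, which starts glycerolipid synthesis, fell by 1.71 and Acly, which makes cytosolic acetyl-CoA, by 1.40 (adjusted p = 1.03e-08 and 4.16e-08). Elovl6, a fatty acid elongase, was the exception (0.09, adjusted p = 0.671). The enzymes that use isoprenoids for dolichol, ubiquinone and protein prenylation had 5 of 12 higher and 0 lower against WT. The 41.7% higher stand beside 27.3% of all genes, and the 0 lower beside 27.8%. The share called in either direction, also 41.7%, was below the 55% of all genes, and the median was 0.13. Rabggtb, a subunit of the Rab prenyltransferase, rose from 31.2 ± 1.8 to 61.6 ± 5.23 normalized CPM (SD, n = 4 each; 0.98, adjusted p = 1.16e-07), and Nus1, of dolichol synthesis, by 0.49 (adjusted p = 1.04e-05).

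Of 13 genes for SREBP processing and sterol-regulated degradation 7 rose (53.8%) and 3 fell (23.1%; median 0.16), where 27.3% of all genes rose and 27.8% fell. The VCP complex that extracts ubiquitinated sterol enzymes and other proteins from the ER led the rises: Nploc4 from 99.9 ± 5.21 to 260 ± 31, Ufd1 from 45.9 ± 2.01 to 111 ± 15.2 and Vcp from 326 ± 7.78 to 599 ± 35.8 (SD, n = 4 each). Among the proteases that cleave SREBP, Mbtps1 fell by 0.36 (adjusted p = 0.000193) while Mbtps2, singled out after its values were seen, rose by 0.43 (adjusted p = 0.000965). Rnf145, a sterol-responsive ubiquitin ligase, fell by 0.57 (adjusted p = 2.39e-05) and Pgrmc1, a haem-binding partner of Cyp51, by 0.21 (adjusted p = 0.0457).

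Sterol transport and cholesterol ester turnover had 6 of 20 higher (30%) and 6 lower (30%; median 0.03), shares near those of all genes. Scp2, sterol carrier protein, fell from 331 ± 36.5 to 159 ± 21.3 normalized CPM (SD, n = 4 each; -1.07, adjusted p = 7.94e-06) and Tmem97, a sterol-regulated partner of NPC1, from 43.4 ± 5.2 to 21.3 ± 4.47 (-1.04, adjusted p = 1.73e-05). The lipid transport genes Stard3nl and Osbpl1a fell by 0.56 and 0.41 (adjusted p = 2.54e-05 and 0.000112). Of the 6 that rose, Osbpl2 and Osbpl9 had the smallest p (0.69 and 0.38, adjusted p = 0.000119 and 0.000121). Of 9 LXR partners and targets 1 rose and 3 fell (median -0.18), so that 44.4% were called, below the 55% of all genes. Ncoa1 and Ncor1 fell by 0.62 and 0.45 (adjusted p = 5.89e-07 and 3.28e-05). Nr1h3, the gene of LXR alpha, fell from 19 ± 2.39 to 7.71 ± 3.42 (-1.39, adjusted p = 0.000363), beside the small rise of Nr1h2. Lpcat3, an LXR-controlled acyltransferase, rose by 0.28 (adjusted p = 0.0163). Of 6 oxysterol enzymes 2 rose and 2 fell (33.3% each), also near the background. Hsd3b7, of bile acid synthesis, rose from 24 ± 2.21 to 75.8 ± 7.71 (1.65, adjusted p = 7.65e-09) and Cyp39a1, an oxysterol hydroxylase, fell by 0.80 (adjusted p = 9.59e-07). In C185Gneo against WT limma called 0 genes of these 6 lists.

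**Figure D5:**
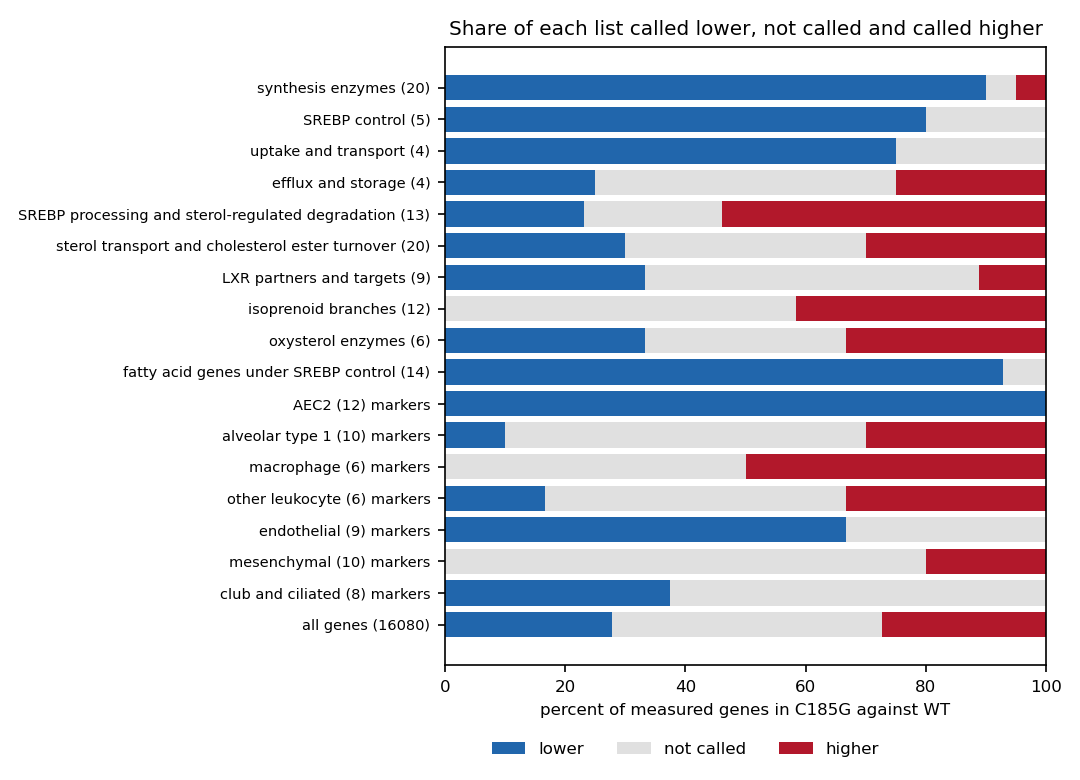
Percent of measured genes (horizontal axis) called lower (blue), not called (grey) and called higher (red) in C185G against WT, for the cholesterol genes, 6 lists of neighbouring functions, 7 lists of cell type markers and all genes (number measured in brackets). Synthesis enzymes, fatty acid genes under SREBP control and AEC2 markers have the longest blue bars, and the isoprenoid branches, macrophage and mesenchymal lists have none.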

How the data were processed

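RNA of isolated AEC2 from 12 libraries was sequenced; each deposited file holds log2 values for 16080 genes. Per the submitters' processing notes STAR, limma and mm10 were used, without versions; the sources used here name no counting tool, annotation or strand setting. The values themselves show log2 of whole counts plus 0.5, scaled by the authors with a constant for each library. Whole counts were recovered (100% within a tolerance of 1e-06). Scaled totals differed by at most 1.084 times, and such scaling hides any change shared by all transcripts. Adding 0.5 understates changes of genes with few counts.

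Symbols came from GENCODE M21 (GRCm38), which named 16017 of the genes and left 63 without a symbol. All 12 libraries entered 1 limma fit (lmFit, eBayes with trend and robust; limma 3.58.1, R 4.3.3) without covariates, with calls at an adjusted p under 0.05 (Benjamini-Hochberg, all genes). Ratios used exact permutation tests (scipy 1.17.1, Python 3.11.15). The fit was also run on simulated data in which few genes changed, unlike these data. That run checks the computation and not the calls reported above. Near-identical transcripts were sought with blastn 2.17.0 (at least 95% identity over 200 bases). All members were named. Of other lists, up to 4 called genes with the smallest p and called genes against the common direction could be named. Mbtps2, Osbpl2 and Osbpl9 were named outside this rule. Members and lists were chosen with earlier results of these data known. Alternatives were other scalings, filters, weights and fits and each library left out. Genes of the pathway outside these lists are not analysed here.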

Additional observations from a re-analysis of the deposited data

Results flagged for a closer look

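In 34 genes (the 33 and Sftpc) each genotype's 4 libraries were checked for a library far from the others, by the gap to its nearest neighbour over the group's range (Dixon's 95% critical value). Of 102 groups 5 (4.9%) had one, where chance gives about 1 in 20. C185Gneo library 3 was low for 3 enzyme genes: Fdft1 at 122 normalized CPM (others 143 to 147), Msmo1 at 99 (125 to 130) and Hsd17b7 at 35.6 (50.9 to 53). C185G library 1 was low for Insig2, at 47 against 50.6 to 50.9, a narrow range. C185G library 3 was high for Abca1, at 108 against 59.8 to 64.6.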

How the results depend on the processing

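In C185G against WT, 17 alternatives left 28 or 29 of the 33 genes called, and in C185G against C185Gneo 27 to 30. Of 560 values per contrast (1 gene under 1 alternative), 557 and 546 kept their side of the threshold, and no called gene turned its sign. Uncalled genes could change sign within these counts. Against WT Ggps1 ran from -0.1 to 0.03, Insig2 from -0.07 to 0.04 and Abcg1 from -0.17 to 0.23. Quantile normalization reversed the uncalled Npc2 against WT (from -0.16 to 0.19). The calls lost or gained in Npc1, Npc2, Abca1 and Ggps1 stand beside their values, and their cause was not tested. In C185Gneo against WT 0 of the 33 were called under every alternative, while the count over all genes, 87, fell to 40 to 81 when 1 library was left out. It moved by over 1.5 times without WT library 1, 3 or 4 (40, 45 and 51) or C185Gneo library 1, 2 or 3 (43, 42 and 44). Deviations of same-numbered libraries correlated at -0.3 to 0.25, over 0.1 in 3 of 12 pairs. Between WT and C185Gneo they were 0.25, 0.1, 0.03 and 0.24 for numbers 1 to 4, and 5 of 12 libraries correlated best with their own number. As not every pair was over 0.1, the numbers were not taken to pair samples. With the replicate number as a block, 28, 29 and 0 of the 33 genes were called, as without it, and 8670, 9112 and 63 of all genes.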
